A study of Mus musculus with 98 samples.

Results

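Unsorted diffTBLC were compared with TBLC, the cells they came from, before any time in actinomycin D. The comparison uses 4 of the 98 libraries of the series, the 2 TBLC and the 2 diffTBLC libraries labelled 0 h in an actinomycin D course of both states, and it concerns levels of expression only. All 21812 gene symbols of the course's count table were considered, of which 14463 passed a filter on low counts and were tested. TBLC, totipotent blastomere-like cells, were grown in 2MYCP medium. The diffTBLC were TBLC that had spent 3 days in SLM medium. All 4 libraries carry the treatment label Actinomycin D with a time of 0 h, and no sort is stated for any of them. The labels of these libraries name no genotype, strain, parental line or clone, and they do not say whether the 2 replicates of a group came from separate cultures. The p-values below thus refer to the spread between the 2 replicates of a group, estimated over all 16 libraries of the course. That spread may be technical. The change of medium and the 3 days in it go together and cannot be told apart. A shorter SLM arm of the series is labelled PlaB-, and whether these 3 days were also without PlaB is not given in the sources used here.

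TBLC were first derived from mouse embryonic stem cells by holding back the spliceosome with the inhibitor pladienolide B (PlaB), and they express genes of the cleavage-stage embryo. Primitive endoderm (PrE) is the extraembryonic lineage that lines the blastocyst cavity beside the pluripotent epiblast. GATA and SOX family transcription factors specify it, FGF signalling through ERK promotes it, and its descendants, visceral and parietal endoderm, take up proteins by endocytosis, secrete apolipoproteins and lay down a thick basement membrane. Pluripotent epiblast cells move from a naive state, through a formative state marked by new DNA methyltransferase expression, towards gastrulation.

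The 4 libraries held between 17595126 and 19476028 counts. Levels are given as CPM, counts scaled to library size by the trimmed mean of M values (TMM), for each library in the order replicate 1, replicate 2. They are not compared between genes, since they are not divided by length. Changes are log2 of diffTBLC over TBLC with the standard error of an edgeR quasi-likelihood fit (n = 2 libraries a group), and a gene is said to rise or fall when its Benjamini-Hochberg adjusted p is under 0.05. The largest adjusted p among the genes named below with a value as rising or falling is 0.00932 (Cdx2). Replicates lay close together: the chi-square of counts per degree of freedom was 1.13 in TBLC and 1.27 in diffTBLC, where 1 is counting noise. It was 5.845 and 11.2 in the 2 sorted populations of the series, and 5.54 in the TBLC libraries that accompany them. The share of mitochondrially encoded transcripts was 3.12% and 3.15% in TBLC and 2.14% and 2.26% in diffTBLC.

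Most of the transcriptome differed between the 2 states. Of the 14463 genes tested, 11927 (82.5%) passed, 6184 (42.8%) higher and 5743 (39.7%) lower in diffTBLC. Passing the test is thus common, and the size of a change says more than the call. The counts of rises and falls in the gene lists below are to be read beside these shares. A change of at least 2-fold was found for 1920 genes (13.3%) that rose and 2235 (15.5%) that fell, and one of at least 4-fold for 586 (4.05%) and 819 (5.66%). The median over all genes tested was 0.02 on the log2 scale. Scaled to library totals in place of TMM, that median was -0.18 and the share of rises among the called genes was 40.57% in place of 51.85%, so changes smaller than about that shift turn sign with the scaling.

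**Figure D1:**
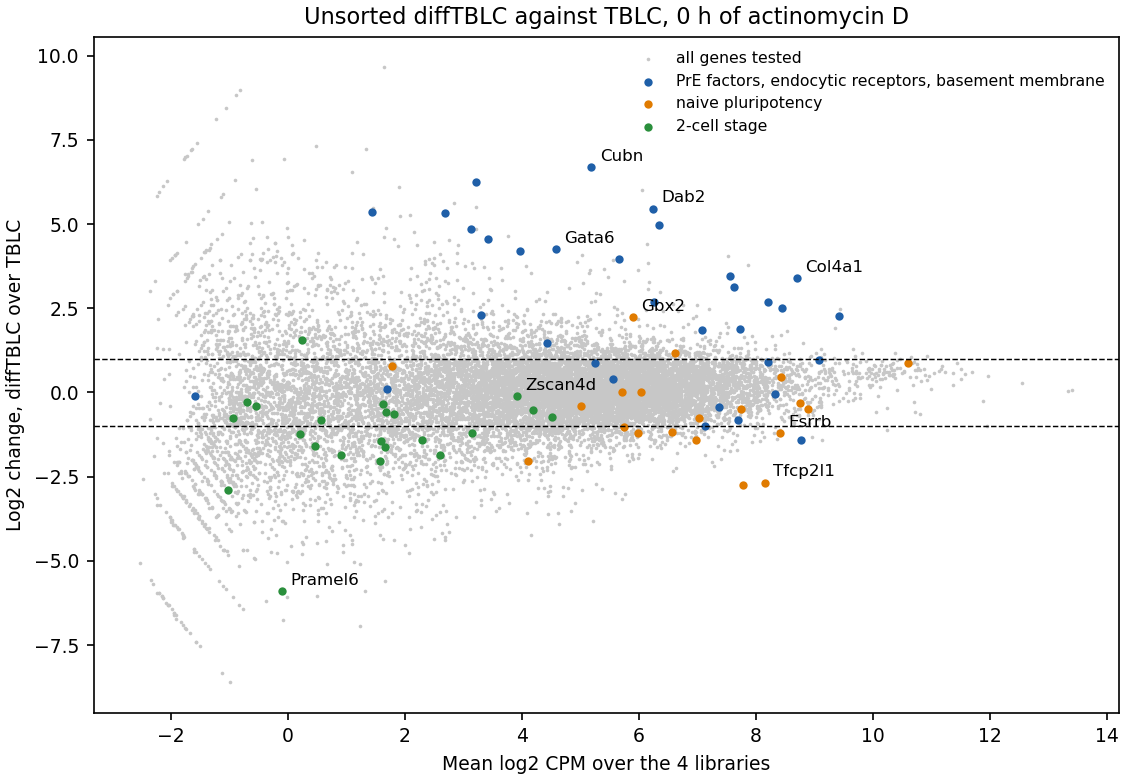
Log2 change (diffTBLC over TBLC, 0 h) against the mean log2 CPM over the 4 libraries for each of the 14463 genes tested, with dashed lines at 2-fold. Grey points are all genes, blue points the transcription factors, endocytic receptor genes and basement membrane genes of PrE, orange points the naive pluripotency genes and green points the 2-cell stage genes. The PrE factors and Cubn lie at the top, between 2.30 and 6.70, while most naive and 2-cell genes lie below 0.

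The transcription factors of PrE rose together. All 8 of the factors listed rose, with a median of 4.40, where 42.8% of all genes tested rose. Gata6, the GATA factor that starts the PrE programme, measured 5.01 and 5.86 CPM in TBLC and 101 and 107 CPM in diffTBLC, a change of 4.26 ± 0.067. Its partner Gata4 measured 12.8 and 12.7 CPM in TBLC and 202 and 199 CPM in diffTBLC, or 3.98 ± 0.052. The diffTBLC libraries were above both TBLC libraries for each of the 8. Groups without overlap were common among all genes listed. They were found for 24 of 24 lysosome genes, 24 of 25 p53 targets, 73 of 74 cytosolic ribosomal protein genes and 12 of 17 germline genes. This separation thus does not set the 8 factors apart. The share over all genes tested is not reported here. Sox17, an endoderm SOX factor, was at 1.7997 and 1.37 CPM in TBLC and 45.6 and 46.1 CPM in diffTBLC (4.84 ± 0.10). Sox7, which is more restricted to extraembryonic endoderm, was at 2.23 and 2.13 CPM in TBLC and 49.6 and 52.6 CPM in diffTBLC (4.55 ± 0.094). The forkhead factor gene Foxq1 measured 3.599 and 3.59 CPM in TBLC and 66.7 and 66.5 CPM in diffTBLC (4.21 ± 0.081). Foxa2, which also acts in later endoderm, rose most and was at 0.471 and 0.284 CPM in TBLC and 15.7 and 15.9 CPM in diffTBLC (5.35 ± 0.19). Hnf4a, a regulator of apolipoprotein genes, rose least, and was at 4.58 and 4.21 CPM in TBLC and 21.2 and 22.2 CPM in diffTBLC (2.30 ± 0.099).

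The start regions of 2 of these 8 genes are in a RefSeq promoter table (GRCm38.p6, an older build than that of the counts), and both hold the hexamer AGATAA, the core bound by GATA factors, within the 250 bases before the start. Of the 11385 tested genes with an entry, 7.24% hold it on either strand, as do 0 of 13 basement membrane genes and 0 of 8 genes of the endocytic receptor complex with an entry. A match describes the letters and is not evidence of binding. The 2 sequences are shown because they belong to factors that rose together with Gata6 and Gata4, 5′ to 3′ on the gene's strand, with the hexamer in capitals. The Foxa2 stretch is chr2:148045465-148045714 on the minus strand and that of Hnf4a is chr2:163506607-163506856 on the plus strand.
Foxa2: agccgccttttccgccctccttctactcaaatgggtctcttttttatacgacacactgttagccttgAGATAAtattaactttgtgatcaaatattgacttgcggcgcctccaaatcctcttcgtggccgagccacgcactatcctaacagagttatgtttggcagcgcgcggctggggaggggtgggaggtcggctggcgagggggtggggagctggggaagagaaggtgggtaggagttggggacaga
Hnf4a: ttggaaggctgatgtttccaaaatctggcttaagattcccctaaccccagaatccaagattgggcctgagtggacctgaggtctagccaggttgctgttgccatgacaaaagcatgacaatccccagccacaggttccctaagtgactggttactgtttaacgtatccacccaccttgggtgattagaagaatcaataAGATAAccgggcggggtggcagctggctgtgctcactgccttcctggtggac

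The receptor machinery with which visceral endoderm takes up proteins rose in 6 of 8 genes listed, and none fell (median 3.43). Cubn, which encodes the multiligand receptor cubilin, measured 3.21 and 3.88 CPM in TBLC and 372 and 364 CPM in diffTBLC, a 104-fold rise and the largest among genes whose log2 CPM averaged 3 or more. Amn, whose product amnionless carries cubilin to the membrane, was at 1.07 and 0.946 CPM in TBLC and 80.01 and 76.1 CPM in diffTBLC (6.26 ± 0.10). Lrp2, the gene of the co-receptor megalin, was at 15.8 and 13.1 CPM in TBLC and 461 and 456 CPM in diffTBLC (4.98 ± 0.041), and Dab2, the clathrin adaptor for these receptors, at 11.4 and 11.3 CPM in TBLC and 498 and 503 CPM in diffTBLC (5.46 ± 0.042). Each of these 4 genes was lower in both TBLC libraries than in either diffTBLC library, and such separation was common among all genes listed. Lrpap1, a chaperone of the receptor, rose by 1.88 and the chloride exchanger gene Clcn5 by 1.46. The Fc receptor gene Fcgrt (0.11 ± 0.17, but -0.09 under library totals) and the scavenger receptor gene Stab1 (-0.12 ± 0.68, on few counts) did not pass.

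Proteases and enzymes of the lysosome, where such cargo ends, moved in both directions, with 15 of 24 higher and 9 lower (median 0.28, and 12 and 10 under library totals). Cathepsin H led: Ctsh was at 2.49 and 2.89 CPM in TBLC and 64.4 and 68.8 CPM in diffTBLC (4.63 ± 0.085). The protease genes Lgmn (2.64), Ctsl (2.47) and Ctsz (2.41) also rose. The membrane protein gene Lamp2 (-1.40) and the cholesterol exporter gene Npc1 (-0.84) fell.

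Basement membrane genes moved in both directions. Of 17, 12 rose and 5 fell, with a median of 0.95. Both chains of collagen IV rose: Col4a1 measured 126 and 131 CPM in TBLC and 1356 and 1341 CPM in diffTBLC (3.39 ± 0.025) and Col4a2 54.98 and 58.5 CPM in TBLC and 631 and 626 CPM in diffTBLC (3.47 ± 0.030). The collagen chaperone gene Serpinh1 (3.12 ± 0.029) and the prolyl hydroxylase gene P4ha2 (2.699 ± 0.039) rose with them, as did Sparc (2.28 ± 0.022), a collagen-binding matrix gene. The laminin chains of the early embryo rose unequally, Lamb1 by 2.69, Lama1 by 2.50 and Lamc1 by 0.95. The fibronectin gene Fn1 and the laminin linker gene Nid1 fell. Fn1 was at 717 and 706 CPM in TBLC and 271 and 262 CPM in diffTBLC (-1.42 ± 0.024) and Nid1 at 199.6 and 197 CPM in TBLC and 100.3 and 97.6 CPM in diffTBLC (-1.003 ± 0.031). Lama5 (-0.82) and Agrn (-0.43) were also lower.

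Secreted products of visceral endoderm rose in 10 of the 11 genes with enough counts to test (median 3.38), and Trf, the transferrin gene, fell (-1.13 ± 0.12). Ttr, the thyroid hormone carrier, had 0 counts in both TBLC libraries and 57 and 56 in diffTBLC, at least 42.3-fold higher with a floor of 3 counts over the group. The list's median is the same with Ttr at that bound. The apolipoprotein gene Apoe measured 193 and 200.3 CPM in TBLC and 695 and 709.9 CPM in diffTBLC (1.84 ± 0.027) and Apob 0.643 and 0.899 CPM in TBLC and 8.25 and 8.44 CPM in diffTBLC (3.44 ± 0.19). The lipoprotein assembly gene Mttp (3.38 ± 0.15) and the cholesterol esterifying gene Soat2 (3.28 ± 0.14) rose, and so did the trypsin inhibitor gene Spink1 (6.11 ± 0.16). The later markers Afp, Apoa2, Apoc2, Fga, Fgb, Fgg and Serpina1b had too few counts to be tested.

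Genes of the anterior visceral endoderm, the signalling centre that patterns the epiblast, rose in 6 of 7 cases (median 3.75). Lhx1 (4.43 ± 0.38), the Wnt inhibitor genes Sfrp5 (3.99 ± 0.31) and Dkk1 (3.75 ± 0.11) and the junction gene Amot (3.94 ± 0.049) rose strongly. Hhex, a homeobox factor of this region, rose by 1.21, while Lefty1 fell (-0.33 ± 0.054) and Cer1 had too few counts to be tested. Parietal endoderm genes split 5 higher and 3 lower of 8 (median 0.51). Pth1r, the parathyroid hormone receptor gene of that tissue, was at 1.16 and 1.51 CPM in TBLC and 59.6 and 60.6 CPM in diffTBLC (5.49 ± 0.099), and Stra6, the retinol transporter gene, rose by 3.31. The activin inhibitor gene Fst fell, at 46.4 and 47.2 CPM in TBLC and 10.4 and 11.3 CPM in diffTBLC (-2.11 ± 0.067).

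**Figure D2:**
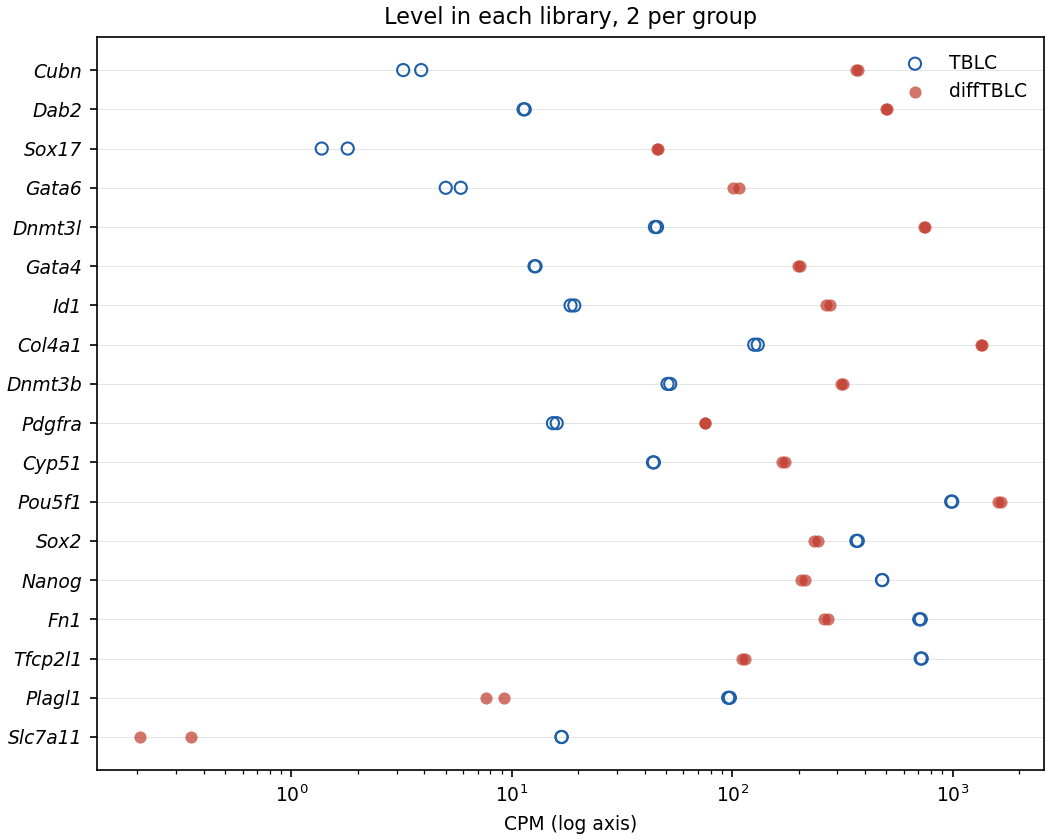
CPM on a log axis in each of the 4 libraries for 18 genes, with open circles for the 2 TBLC and filled circles for the 2 diffTBLC libraries. The libraries of a group lie nearly on top of each other, and the groups are apart for every gene shown, from Cubn at the top to Slc7a11 at the bottom, ordered by log2 change.

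Pluripotency genes did not move as 1 block. Of 14 core genes 10 rose and 4 fell (median 0.67). Pou5f1, the central factor OCT4, was higher in diffTBLC, at 997 and 986 CPM in TBLC and 1654 and 1612 CPM in diffTBLC (0.72 ± 0.020). Sox2, its binding partner, was lower, at 366 and 371 CPM in TBLC and 236 and 244 CPM in diffTBLC (-0.62 ± 0.025), and Nanog lower still, at 480.2 and 478 CPM in TBLC and 205 and 214 CPM in diffTBLC (-1.19 ± 0.026). Utf1, a chromatin factor gene, was at 60.7 and 63.7 CPM in TBLC and 340.3 and 346 CPM in diffTBLC (2.47 ± 0.033), and Tdgf1, the Nodal co-receptor, at 527 and 512 CPM in TBLC and 1276 and 1277 CPM in diffTBLC (1.30 ± 0.022). Dppa4 (1.20) and Dppa2 (1.17) rose as well. Fbxo15 (-1.33) and Sall4 (-0.54) fell.

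Of 20 genes of the naive state 13 fell and 5 rose (median -0.49, where 39.7% of all genes tested fell). The naive factors Tfcp2l1, at 725 and 717 CPM in TBLC and 115 and 110.4 CPM in diffTBLC (-2.68 ± 0.027), and Esrrb, at 516 and 519 CPM in TBLC and 232 and 219 CPM in diffTBLC (-1.20 ± 0.025), were lower. Prdm14 (-2.02), Klf4 (-1.40), Klf2 (-1.16), Nr5a2 (-1.01) and Tet2 (-1.20) fell, and so did the junction gene Jam2 (-2.76). Gbx2 was an exception, at 27.2 and 27.4 CPM in TBLC and 131 and 128 CPM in diffTBLC (2.25 ± 0.044), and Dppa3 rose by 0.79.

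Genes of the formative state rose in 14 of 17 cases, with a median of 2.60. Dnmt3l, the cofactor of the de novo DNA methyltransferases, was at 45.6 and 44.6 CPM in TBLC and 748 and 739.9 CPM in diffTBLC (4.04 ± 0.031). Dnmt3b was at 52.3 and 50.9 CPM in TBLC and 318 and 313 CPM in diffTBLC (2.61 ± 0.033) and Dnmt3a at 30.2 and 28.99 CPM in TBLC and 95.002 and 89.7 CPM in diffTBLC (1.64 ± 0.047). The growth factor genes Fgf5, at 0.171 and 0.142 CPM in TBLC and 2.399 and 2.56 CPM in diffTBLC (3.92 ± 0.39), and Fgf15 (4.89 ± 0.18) rose with them. Pou3f1, the factor OCT6, was at 1.7997 and 1.51 CPM in TBLC and 13.04 and 14.2 CPM in diffTBLC (3.03 ± 0.14). Tcf15 (3.64), Grhl2 (2.95), Lef1 (2.84) and Etv4 (2.60) rose, and Otx2 rose by 0.77. Zic2 (-2.37), Zic5 (-1.02) and Etv5 (-0.74) fell. Genes of the maintenance and removal of methylation went both ways. Of the maintenance genes, Dnmt1 fell (-0.38 ± 0.026) and Uhrf1 rose (0.45 ± 0.026). Of the removal genes, Tet1 fell (-1.02 ± 0.025), as did Tet2, and Tet3 rose (1.38 ± 0.13). Over all 14 genes of DNA methylation 8 rose and 5 fell (6 and 6 under library totals).

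Genes of the 2-cell stage were lower in 16 of 22 cases and higher in 1, with a median of -1.01. The decline was uneven within the Zscan4 cluster. Zscan4c was at 21.9 and 21.7 CPM in TBLC and 15.9 and 14.3 CPM in diffTBLC (-0.53 ± 0.077) and Zscan4f at 14.2 and 12.4 CPM in TBLC and 5.397 and 6.14 CPM in diffTBLC (-1.21 ± 0.11), while Zscan4d did not pass, at 14.8 and 16.3 CPM in TBLC and 14.3 and 14.6 CPM in diffTBLC (-0.10 ± 0.083). Under library totals Zscan4d did pass (-0.31, edgeR adjusted p = 0.000537). These copies are nearly identical, as are the Usp17l and Tdpoz copies, and how the authors assigned shared reads is not stated, so the split between copies is uncertain. Pramel6 fell the most, at 5.06 and 4.73 CPM in TBLC and 0.04997 and 0.102 CPM in diffTBLC, where diffTBLC held 3 counts in all (64.6-fold lower, 95% counting interval 21.8 to 315.8). Pramel7 fell by -2.91. The retrogene Zfp352 was at 1.7997 and 1.84 CPM in TBLC and 0.9495 and 1.13 CPM in diffTBLC (-0.81 ± 0.28), with an edgeR adjusted p of 0.00665, or 0.0637 without diffTBLC replicate 1. Cphx1 was the 1 gene of the list that rose (1.56 ± 0.30). In bulk RNA, fewer cells of a type and less RNA per cell cannot be told apart, here and in the results that follow.

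The labels were checked against defining markers. The summed level of 9 PrE markers was 326 and 331 CPM in TBLC and 3533 and 3518 CPM in diffTBLC. That of 5 pluripotency markers was 2430.4 and 2412 CPM against 3711 and 3694 CPM. Among these 5, Pou5f1, Tdgf1 and Utf1 rose while Sox2 and Nanog fell. Such sums are not divided by length and weigh most the genes with the most reads. Markers of 2-cell-like cells summed to 39.1 and 40.3 CPM in TBLC and 31.5 and 30.4 CPM in diffTBLC. The 5 trophectoderm markers stayed between 2.84 and 3.65 CPM in sum in all 4 libraries, although Hand1 had 1 and 2 counts in TBLC and 26 and 18 in diffTBLC. The 7 blood and endothelium markers summed to 15.1 and 15.5 CPM in TBLC and 9.20 and 9.05 CPM in diffTBLC. Among them Hbb-bs had 0 counts in all 4 libraries, and Ptprc had at most 9. Tek had 299 and 267 counts in TBLC and 61 and 61 in diffTBLC, while Cdh5 had 6 and 10 in TBLC and 104 and 89 in diffTBLC.

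Genes of fibroblasts, the cells often used as feeders, were lower in diffTBLC. Of 16 listed, 13 fell and 2 rose (median -1.37), and their summed level was 576 and 586 CPM in TBLC against 335 and 333 CPM in diffTBLC. Dcn, a matrix proteoglycan gene, was at 27.5 and 27.8 CPM in TBLC and 1.599 and 1.53 CPM in diffTBLC (-4.13 ± 0.12). Col6a1 was at 67.7 and 69.7 CPM in TBLC and 9.15 and 10.5 CPM in diffTBLC (-2.80 ± 0.063) and Col1a1 at 94.5 and 96.3 CPM in TBLC and 37.8 and 35.3 CPM in diffTBLC (-1.38 ± 0.046). The smooth muscle genes Tagln, at 8.099 and 8.09 CPM in TBLC and 53.4 and 53.9 CPM in diffTBLC (2.73 ± 0.071), and Acta2 (2.07) rose instead. Among genes of the mesenchymal transition 7 of 10 fell and 3 rose (median -1.24), with Zeb2 (-2.65 ± 0.19), Cdh11 (-2.33 ± 0.074) and Prrx1 (-2.09 ± 0.068) lower. Fibroblast markers moved in the same direction as these mesenchymal genes, and their part in the result was not tested. The endothelial genes moved apart, with Tie1 (-3.05), Kdr (-2.06) and Tek (-2.04) lower and Cdh5, at 0.257 and 0.473 CPM in TBLC and 5.197 and 4.55 CPM in diffTBLC (3.74 ± 0.27), higher.

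Genes of lineages beyond PrE and epiblast gave smaller counts, where 42.8% of all genes tested rose and 39.7% fell. Of 17 germline genes 6 fell and 2 rose (10 fell under library totals), with the RNA-binding protein gene Dazl at 38.7 and 37.1 CPM in TBLC and 4.45 and 4.96 CPM in diffTBLC (-3.01 ± 0.085). Of 7 neural genes 5 fell and none rose, with the tubulin gene Tubb3 at -2.21 ± 0.068. The count of falls was 2 by DESeq2 and 3 without TBLC replicate 1 or diffTBLC replicate 2. Genes of the primitive streak and mesoderm rose in 4 of 9 cases and fell in 3, near the shares over all genes tested. Trophectoderm genes rose in 7 of 13 cases and fell in 4, with the regulator gene Tfap2c (-0.67 ± 0.11) lower. Cdx2, a regulator of the same lineage, passed (1.002 ± 0.36), but not without TBLC replicate 1 (0.71, edgeR adjusted p = 0.131), without diffTBLC replicate 1 (0.92, edgeR adjusted p = 0.06096) or by DESeq2 (adjusted p = 0.0657). Of 9 blood and endothelium genes 6 fell and 1 rose. Genes of the Hippo pathway and its targets split 4 and 4 of 12 (4 and 8 under library totals). Ccn1 (1.41 ± 0.060) and Tead2 (1.62 ± 0.042) were higher and Tead1 (-0.99 ± 0.031) lower.

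Epithelial genes rose in 16 of 20 cases (median 1.10). The keratin genes Krt18, at 6.17 and 8.13 CPM in TBLC and 40.1 and 39.8 CPM in diffTBLC (2.49 ± 0.080), and Krt8, at 30.2 and 30.3 CPM in TBLC and 102 and 98.7 CPM in diffTBLC (1.73 ± 0.047), rose, as did the adhesion gene Epcam (1.94 ± 0.033) and the claudin genes Cldn6 (2.92 ± 0.051) and Cldn7 (3.31). Podxl, which encodes the apical sialomucin podocalyxin, was at 15.6 and 15.04 CPM in TBLC and 332 and 319 CPM in diffTBLC (4.41 ± 0.041). Cdh1, the E-cadherin gene, was lower, at 494 and 493 CPM in TBLC and 316 and 317 CPM in diffTBLC (-0.64 ± 0.023), and Tjp1 (-0.51) fell with it. Of 14 integrin genes 8 fell and 4 rose (median -0.93). Itgb4 (-2.07 ± 0.072) and Itga6 (-1.05 ± 0.036), which pair as a laminin receptor, were lower, while Itga3 (1.67 ± 0.055) and Itga5 (0.87 ± 0.040) were higher.

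Transcripts of the FGF pathway rose in 17 of 23 cases and fell in 5 (median 1.25). Among ligands, Fgf3 (3.11 ± 0.11) rose, Fgf8 rose from 3 counts, all in TBLC replicate 1, to 29 over the 2 diffTBLC libraries (10.9-fold, 95% counting interval 3.37 to 55.8), and Fgf4, the ligand made by epiblast cells, fell (-0.49 ± 0.028). Among receptors, Fgfr4 was at 1.54 and 1.18 CPM in TBLC and 21.9 and 22.04 CPM in diffTBLC (4.00 ± 0.13), Fgfr3 at 1.11 and 0.804 CPM in TBLC and 21.1 and 19.5 CPM in diffTBLC (4.38 ± 0.14) and Fgfr2 at 3.64 and 3.26 CPM in TBLC and 12.1 and 10.996 CPM in diffTBLC (1.74 ± 0.13), while Fgfr1 fell, at 85.1 and 85.6 CPM in TBLC and 53.5 and 54.4 CPM in diffTBLC (-0.66 ± 0.040). The receptor genes thus moved in 2 directions. Feedback inhibitors of ERK moved in both directions: Spry4 was at 16.9 and 18.9 CPM in TBLC and 224 and 221 CPM in diffTBLC (3.64 ± 0.043) and Dusp6 at 47.3 and 48.3 CPM in TBLC and 116 and 111 CPM in diffTBLC (1.25 ± 0.040), Dusp4 rose by 1.68, and Spred2 (-0.49) and Il17rd (-1.35) fell. Pdgfra, the receptor whose protein CD140a the study sorted on, was at 15.98 and 15.4 CPM in TBLC and 75.4 and 75.5 CPM in diffTBLC (2.27 ± 0.057). It was the 1 of 7 PDGF genes that rose, and 4 fell, among them Pdgfc (-1.94), Pdgfrb (-1.30) and Pdgfa (-0.36).

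Wnt pathway genes split 9 higher and 12 lower of 23 (median -0.10, and 6 and 13 under library totals). Genes that canonical Wnt signalling induces went both ways. Lower were Sp5 (-2.95 ± 0.14), Notum (-2.71 ± 0.054), Axin2 (-1.25 ± 0.055), Rnf43 (-1.43 ± 0.25) and the caudal factor gene Cdx1 (-3.71 ± 0.12). Axin2 was at 57.1 and 53.5 CPM in TBLC and 23.04 and 23.4 CPM in diffTBLC. Among those higher, the feedback gene Nkd1 changed by 0.88 ± 0.26, and the secreted inhibitor gene Dkk1 was at 1.97 and 2.36 CPM in TBLC and 29.1 and 29.2 CPM in diffTBLC. Lef1, a nuclear effector, was at 2.74 and 2.51 CPM in TBLC and 19.1 and 18.8 CPM in diffTBLC (2.84 ± 0.12). The mesoderm factor brachyury, listed as T, was at 5.53 and 6.05 CPM in TBLC and 0.3498 and 0.153 CPM in diffTBLC and fell by 4.48 on the log2 scale. The secreted inhibitor gene Sfrp1 fell (-2.99 ± 0.048) although its relative Sfrp5, named above, rose.

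Within the BMP pathway 9 of 22 genes rose and 11 fell (median -0.24). This split and those of the other pathways here stand beside the 42.8% and 39.7% of all genes tested that rose and fell. The target gene Id1 was at 18.5 and 19.2 CPM in TBLC and 277 and 266 CPM in diffTBLC (3.85 ± 0.044), and Id2 rose by 1.67, while Id3 (-0.55) and Id4 (-1.22) fell. The ligand genes Bmp4, at 34.97 and 35.6 CPM in TBLC and 143 and 137 CPM in diffTBLC (1.99 ± 0.041), and Bmp2 (1.81) rose and Bmp7 fell (-1.55). The antagonist gene Grem1 fell (-2.17 ± 0.049). Nodal and activin genes split 8 and 8 of 18 (5 and 10 under library totals), with Lefty2 (0.88 ± 0.025) higher and Nodal itself (-0.69 ± 0.044), Inhba (-2.21 ± 0.063) and Pcsk6 (-1.50 ± 0.039) lower. In the LIF pathway 6 rose and 6 fell of 12. The targets Pim1 (1.95 ± 0.073) and Socs3 (1.04 ± 0.033) were higher and the receptor subunit gene Il6st (-0.69) and Lif (-1.24) lower. Among Hedgehog genes Ihh, at 0.386 and 0.284 CPM in TBLC and 4.398 and 4.76 CPM in diffTBLC (3.74 ± 0.27), rose, and 7 of 10 fell, among them Hhip, with 89 counts over the 2 TBLC libraries and 2 in diffTBLC (39.6-fold lower, 95% counting interval 10.6 to 331.9), and the effector gene Gli2 (-1.77 ± 0.054). The Notch genes Mfng (2.55 ± 0.14) and Dll1 (2.26) rose and Jag1 (-1.51 ± 0.077) and Notch1 (-0.99 ± 0.065) fell, of 6 that rose and 7 that fell among 17.

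**Figure D3:**
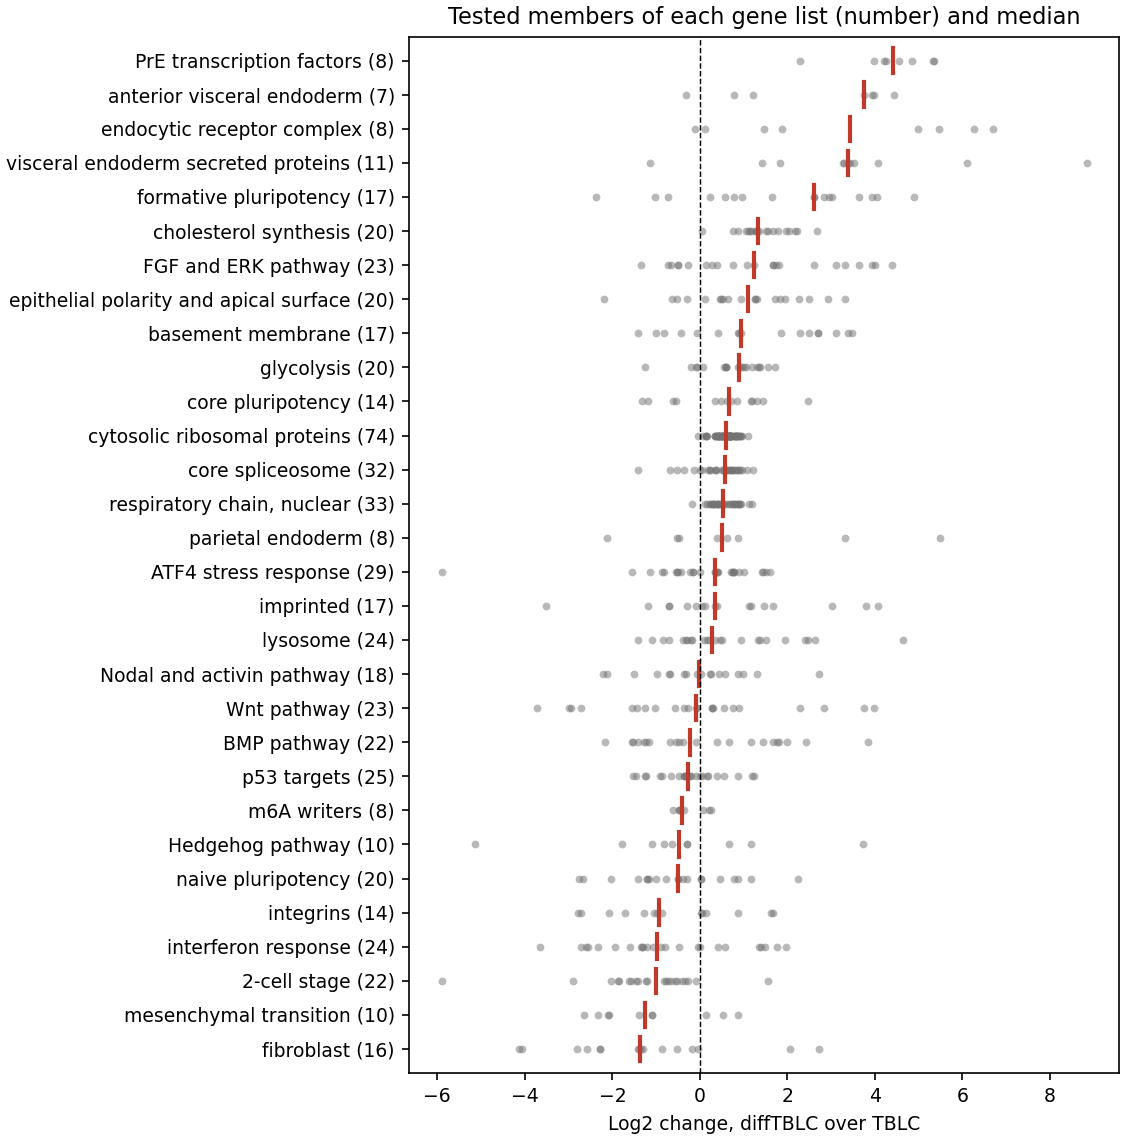
Log2 change of every tested member of 30 gene lists (grey points), with the list median as a red bar, ordered by median, and a dashed line at 0. Medians run from 4.40 for the PrE transcription factors to -1.37 for the fibroblast genes, and the members of most signalling pathways lie on both sides of 0.

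Cholesterol synthesis genes rose nearly throughout. Of 20 genes 19 rose and none fell (median 1.34). Pmvk, a kinase of the mevalonate branch, was at 14.1 and 14.5 CPM in TBLC and 90.9 and 92.7 CPM in diffTBLC (2.68 ± 0.054), and the demethylase gene Cyp51 at 43.7 and 44.1 CPM in TBLC and 173 and 169 CPM in diffTBLC (1.96 ± 0.037). Msmo1 (2.04 ± 0.035) and Fdft1 (1.501 ± 0.026) rose. Hsd17b7 did not pass (0.05 ± 0.081, or -0.16 under library totals).

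Genes of cholesterol uptake, efflux and sensing moved in both directions, with 8 of 14 higher and 5 lower. Insig1 (1.75 ± 0.045), which retains the sterol sensor, and Srebf2 (1.08 ± 0.033), the transcription factor of the pathway, rose, as did Soat1 (1.45 ± 0.053), whose product esterifies cholesterol for storage. The exporter gene Abca1, at 55.7 and 54.5 CPM in TBLC and 15.4 and 14.3 CPM in diffTBLC (-1.89 ± 0.061), and its relative Abcg1 (-1.94 ± 0.089) fell, as did Mylip (-1.998 ± 0.15), a ubiquitin ligase gene. Fatty acid synthesis genes rose in 13 of 14 cases (median 0.67), with the desaturase genes Fads2 (2.16 ± 0.056) and Scd1 (1.15 ± 0.034) among them.

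The sterol element searched was TCACNCCAC, on both strands, the form bound by sterol regulatory factors. In the 250 bases before the start it was found in 1 of 15 cholesterol synthesis genes with an entry, in 0 of 9 genes of uptake, efflux and sensing, and in 1.25% of the 11385 tested genes. The match is in Hmgcs1, which encodes a synthase early in the pathway and rose, at 181 and 181 CPM in TBLC and 368 and 377 CPM in diffTBLC (1.04 ± 0.026). Its stretch is chr13:119690101-119690350 on the plus strand of GRCm38.p6, shown as the 1 promoter of the pathway with these letters, which are in capitals.
Hmgcs1: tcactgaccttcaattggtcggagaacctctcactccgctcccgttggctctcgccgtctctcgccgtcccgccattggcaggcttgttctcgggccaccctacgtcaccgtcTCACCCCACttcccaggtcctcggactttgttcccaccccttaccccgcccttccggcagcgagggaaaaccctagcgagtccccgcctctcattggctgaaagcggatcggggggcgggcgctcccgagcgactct

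**Figure D4:**
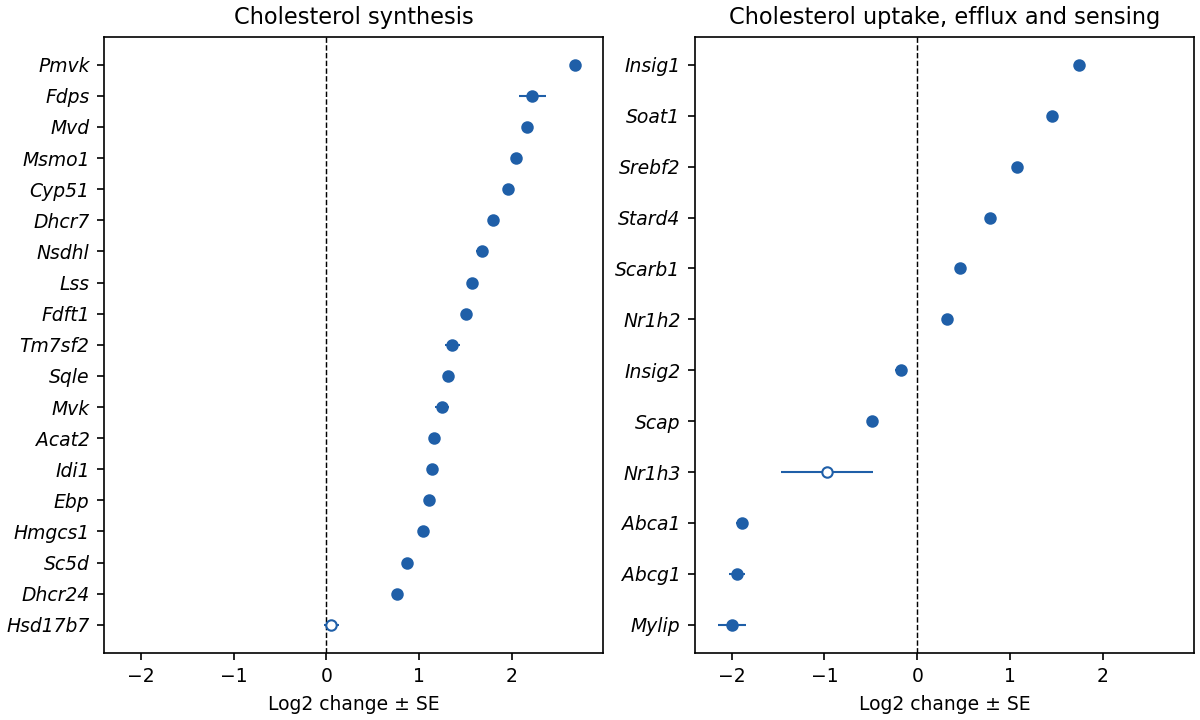
Log2 change with its standard error for 19 of the 20 genes of cholesterol synthesis and 12 of the 14 genes of cholesterol uptake, efflux and sensing, from the fit of n = 2 libraries a group, with filled points for genes that passed. Synthesis genes lie above 0, up to 2.68 for Pmvk, while the second group runs from Insig1 at the top to Mylip at the bottom.

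More genes of energy metabolism and growth rose than fell, except among those encoded in mitochondria. Glycolysis genes rose in 16 of 20 cases (median 0.89), among them the enzyme genes Pfkl (1.72 ± 0.025), Tpi1 (1.30 ± 0.022) and Pgk1 (1.18 ± 0.022) and the lactate exporter gene Slc16a3 (1.56 ± 0.037), while the hexokinase gene Hk1 fell (-1.26 ± 0.038). Nuclear genes of the respiratory chain rose in 32 of 33 cases (median 0.53, or 27 and 0.32 under library totals), with Ndufb10 (1.19 ± 0.039) and Cyc1 (0.82 ± 0.029) as examples. The mitochondrially encoded genes did not follow them, with 5 higher and 5 lower of 11 (4 and 6 under library totals). Several of those higher had far fewer counts than mt-Cytb, mt-Nd5 and mt-Nd2. Reads of some mitochondrially encoded genes can be shared with nuclear copies. The cytochrome b gene mt-Cytb, at 5630.4 and 5619 CPM in TBLC and 2877 and 2729 CPM in diffTBLC (-1.005 ± 0.026), fell, and mt-Nd5 (-0.63 ± 0.028) and mt-Nd2 (-0.58 ± 0.036) fell with it. Cytosolic ribosomal protein genes rose in 73 of 74 cases and none fell (median 0.61, or 68 and 4 with a median of 0.40 under library totals), Rpl8 among them (1.09 ± 0.022). Reads of these genes can be shared with their processed copies. Ribosome biogenesis genes rose in 19 of 20 cases (median 0.53, or 15 and 0.32 under library totals), among them Rrp9 (1.24 ± 0.038), Nolc1 (1.02 ± 0.025) and Fbl (0.99 ± 0.025). Genes of DNA replication rose in 21 of 25 cases (median 0.46, or 17 and 0.25 under library totals). The G1 cyclin genes moved apart, with Ccne1 (1.65 ± 0.029) and Ccnd3 (1.65 ± 0.027) higher and Ccnd1 (-1.13 ± 0.031) and Ccnd2 (-1.18 ± 0.050) lower. Mitosis genes rose in 16 of 20 cases and fell in 2 (median 0.47, or 11 and 4 with a median of 0.26 under library totals), among them Cdc20 (1.33 ± 0.027) and Ccnb2 (1.24 ± 0.035).

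Genes of the spliceosome, the machine that PlaB inhibits at its SF3B complex, rose in 25 of 32 cases and fell in 5 (median 0.57, or 22 and 7 with a median of 0.37 under library totals). Sm protein genes such as Snrpd1 (1.07 ± 0.029) and Snrpd3 (0.89 ± 0.029) rose. Genes of the SF3B complex itself went both ways. Sf3b1, the subunit to which PlaB binds, fell, at 637 and 646 CPM in TBLC and 399 and 401 CPM in diffTBLC (-0.68 ± 0.022), and so did Sf3b3, at 922 and 902 CPM in TBLC and 345 and 337 CPM in diffTBLC (-1.42 ± 0.023), the lowest change of the list. Sf3b2 (0.18 ± 0.024) and Sf3b5 (1.22 ± 0.046) rose, though under library totals Sf3b2 was at -0.03 (edgeR adjusted p = 0.179). Of 19 genes for SR proteins and their kinases 9 rose and 8 fell (4 and 12 under library totals). The kinase genes Clk1 (-0.61 ± 0.031) and Srpk2 (-0.90 ± 0.046) and the SR genes Srsf5 (-0.52 ± 0.023) and Srsf6 (-0.59 ± 0.023) fell.

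Genes of the m6A machinery, which other libraries of the series address, moved by small amounts, Ythdc2 apart. Of 8 writer genes 2 rose and 5 fell (0 and 6 under library totals, and 1 rose by DESeq2), all by less than 2-fold. The catalytic subunit gene Mettl3 did not pass, at 33.3 and 31.6 CPM in TBLC and 33.8 and 34.7 CPM in diffTBLC (0.08 ± 0.057, but -0.13 under library totals, edgeR adjusted p = 0.0261), and the scaffold gene Virma fell (-0.61 ± 0.041). Of 13 erasers and readers 5 rose and 7 fell (3 and 8 under library totals), with Igf2bp1 (0.49 ± 0.024) higher and Ythdc1 (-0.52 ± 0.034), Ythdf3 (-0.55 ± 0.033) and Ythdc2 (-1.09 ± 0.075) lower. Imprinted genes changed more, 10 higher and 5 lower of 17 (8 and 8 under library totals). Cdkn1c, a growth-restraining cell cycle inhibitor gene, was at 7.97 and 7.95 CPM in TBLC and 134 and 134 CPM in diffTBLC (4.07 ± 0.058), and the retrotransposon-derived gene Peg10 at 62.4 and 62.9 CPM in TBLC and 888 and 853 CPM in diffTBLC (3.80 ± 0.031). Phlda2 was at 5.23 and 5.01 CPM in TBLC and 41.2 and 41.8 CPM in diffTBLC (3.02 ± 0.087). Plagl1, a zinc finger factor gene, was at 95.9 and 97.6 CPM in TBLC and 9.195 and 7.62 CPM in diffTBLC (-3.52 ± 0.070), and Igf2r fell by 1.18.

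Targets of p53 were lower in 16 of 25 cases and higher in 7 (median -0.27). The cell cycle inhibitor gene Cdkn1a was at 328 and 331 CPM in TBLC and 115 and 112 CPM in diffTBLC (-1.53 ± 0.028), and Trp53inp1 (-1.45 ± 0.026), Eda2r (-1.24 ± 0.046) and Ccng1 (-0.90 ± 0.023) fell with it. The pro-death gene Bbc3 rose (1.23 ± 0.073). Of 24 interferon response genes 15 fell and 7 rose (median -0.97). Ifit1 fell from 46 to 3 counts over the 2 libraries (13.6-fold, 95% counting interval 4.38 to 68.6), and Isg15 was at 0.814 and 0.568 CPM in TBLC and 0.04997 and 0.153 CPM in diffTBLC (-2.71 ± 0.63), while Bst2 (1.96 ± 0.057) and the MHC class I gene H2-K1 (1.40 ± 0.060) rose.

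Slc7a11, the cystine transporter that both ATF4 and NRF2 induce, was at 16.8 and 16.8 CPM in TBLC and 0.3498 and 0.205 CPM in diffTBLC (-5.89 ± 0.20), a 59.2-fold fall. The ATF4 list as a whole split, 16 higher and 11 lower of 29 (median 0.36). The serine synthesis gene Phgdh (1.60 ± 0.037) and the mTORC1 inhibitor gene Ddit4 (1.51 ± 0.038) rose, and Asns (-1.14 ± 0.025), for asparagine synthesis, fell. NRF2 targets were 9 higher and 8 lower of 17, and their median changed sign with the scaling, from 0.13 to -0.08 under library totals. The iron storage genes Ftl1 (0.87 ± 0.020) and Fth1 (0.70 ± 0.024) rose and Nqo1 fell (-1.23 ± 0.046). Genes of the unfolded protein response rose in 12 of 18 cases (median 0.46), with Xbp1 (1.25 ± 0.038) and Manf (1.17 ± 0.031) among them. Among immediate early genes 10 of 18 rose and 5 fell. Myc was at 14.1 and 13.3 CPM in TBLC and 107 and 106 CPM in diffTBLC (2.95 ± 0.053), Zfp36 rose by 2.14, and Fos fell, at 10.1 and 10.5 CPM in TBLC and 5.097 and 4.501 CPM in diffTBLC (-1.10 ± 0.12).

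Past these lists, the 15 largest rises among genes whose log2 CPM averaged 3 or more include Srgn and Nxf7. Srgn, which encodes the granule proteoglycan serglycin, was at 7.76 and 8.75 CPM in TBLC and 536 and 535 CPM in diffTBLC (6.02 ± 0.042). Nxf7, a relative of the mRNA export factor genes, was at 1.7997 and 1.56 CPM in TBLC and 50.9 and 46.8 CPM in diffTBLC (4.85 ± 0.10). The 15 largest falls hold no member of the pluripotency lists. Zbed6, a transposon-derived factor gene whose counts are uncertain because it lies inside another gene, was at 79.5 and 74.9 CPM in TBLC and 4.75 and 3.48 CPM in diffTBLC (-4.23 ± 0.080), the largest of them. The next were Dmgdh, at 96.4 and 93.6 CPM in TBLC and 6.797 and 5.93 CPM in diffTBLC (-3.90 ± 0.065), and Bhmt2 (-3.70 ± 0.10), both enzymes of betaine and one-carbon metabolism, and the actin-binding gene Ablim1, at 141 and 137 CPM in TBLC and 9.25 and 10.5 CPM in diffTBLC (-3.82 ± 0.055). Mitf (-3.44 ± 0.091), the factor of pigment cells and lysosome genes, and Gpnmb (-3.51 ± 0.094), a known target of it, fell together. The rest were Xaf1 (-3.62), Mcf2 (-3.59), Thbs2 (-3.57), Plagl1 (above), Zfp607b (-3.34), Zfhx2 (-3.30), Zfp978 (-3.30), Cd109 (-3.25) and Irgm1 (-3.21).

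The unsorted culture was set beside 6 other libraries of the series, 2 of TBLC and 2 each of cells sorted after 3 days in SLM into CD140-positive PrE-T and CD140-negative EPI-T. That table was normalized and fitted on its own, so levels are not compared across tables. Of 13940 genes tested in both, 530 rose at least 4-fold in unsorted diffTBLC. Of these, 294 (55.5%) were called at least 2-fold higher in PrE-T over EPI-T and 116 (21.9%) at least 2-fold lower, against 18.7% and 15.8% of all 13940 (18.6% and 15.8% of the 14373 genes tested in the sorted table). The 294 are 11.3% of all genes that much higher in PrE-T, and the 116 are 5.27% of those that much higher in EPI-T. Of 675 genes that fell at least 4-fold, 125 (18.5%) were higher in PrE-T and 201 (29.8%) higher in EPI-T by that measure.

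Genes that rose at least 4-fold in the whole culture included some higher in each sorted population and 120 of the 530 (22.6%) that were 2-fold higher in neither. Of the 1815 that rose at least 2-fold, 679 (37.4%) were that much higher in PrE-T, 323 (17.8%) in EPI-T and 813 (44.8%) in neither. On the PrE-T side, Gata6 differed by 6.16 ± 0.10 (PrE-T over EPI-T, log2) and Cubn by 8.22 ± 0.084. On the EPI-T side were Cdkn1c (-3.47 ± 0.088), Phlda2 (-3.61 ± 0.20), Peg10 (-2.87 ± 0.052), Gbx2 (-3.43 ± 0.087), Lef1 (-3.92 ± 0.21), Grhl2 (-3.58 ± 0.16), Fgf15 (-3.21 ± 0.51) and Tdgf1 (-4.11 ± 0.059). Formative genes did not all sit there: 11 of 17 were higher in EPI-T and 5 in PrE-T, against 32.8% and 35.8% of all genes tested in the sorted table, Dnmt3b (1.42 ± 0.052) among the latter. Pou5f1 was closer between the populations (-0.39 ± 0.050).

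Some genes fell in the whole culture and differed between the sorted populations. The contrast of PrE-T over EPI-T holds no TBLC, so a gene can fall from TBLC and still be higher in 1 population. Fst fell in diffTBLC, and its PrE-T level exceeded that of EPI-T (2.21 ± 0.13). The same held for Col6a1 (3.36 ± 0.15) and Nid1 (1.82 ± 0.061). Fibroblast genes as a list fell in 13 of 16 cases in the unsorted culture and were called higher in PrE-T in 15 of 16 cases. The 2-cell genes were called higher in EPI-T in 16 of 21 cases tested there, with Zscan4d, which did not pass in the unsorted comparison, differing by -4.74 ± 0.14.

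Over the 13940 genes, the unsorted log2 change correlated with that of PrE-T over EPI-T with Pearson's r = 0.246 (Spearman's rho = 0.182), with that of PrE-T over TBLC with r = 0.705 (rho = 0.669) and with that of EPI-T over TBLC with r = 0.403 (rho = 0.409). These are descriptions across genes, which are not independent replicates, and the 3 sorted contrasts share libraries with each other but none with the unsorted comparison. The genes that rose at least 4-fold had a median of 2.20 in PrE-T over TBLC and 0.38 in EPI-T over TBLC. Those that fell at least 4-fold had medians of -3.15 and -2.57.

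**Figure D5:**
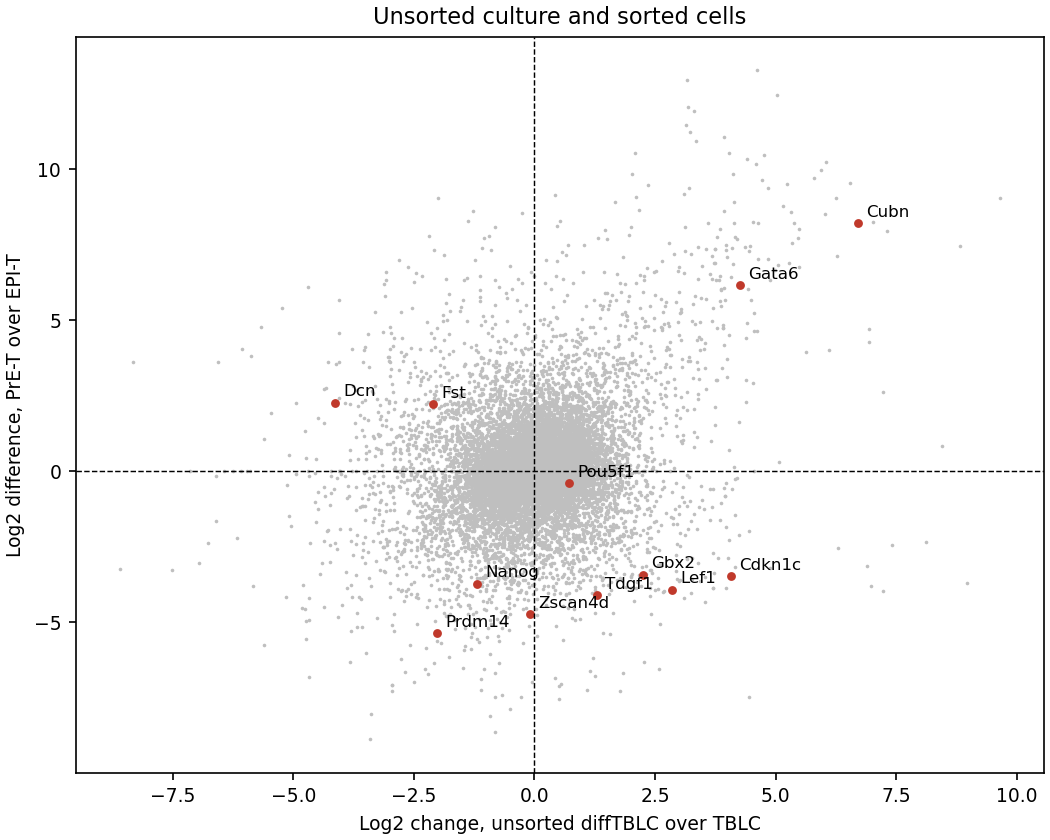
Log2 change in the unsorted culture (diffTBLC over TBLC, horizontal) against the log2 difference of the sorted cells (PrE-T over EPI-T, vertical) for the 13940 genes tested in both tables. Named points at the upper right, such as Cubn and Gata6, are PrE genes, those at the lower right, such as Cdkn1c and Lef1, rose and were higher in EPI-T, and those well to the left, such as Dcn and Prdm14, fell.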

How the data were processed

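Per the labels' protocols, total RNA was taken with TRIzol, 2 stranded kits served for library preparation and 2 instruments for sequencing, with no statement of which served a given library. The raw counts per gene symbol were deposited by the authors. Per the submitters' processing notes genome build mm39 was used with STAR 2.7.11b, and FastQC 0.12.1, Trim Galore, DESeq2 and Subread are also named. How multi-mapping reads and overlapping genes were counted is not given in the sources used here.

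Counts of all 16 libraries of the course (8 groups of state and hour, n = 2) were filtered with filterByExpr, scaled by TMM and fitted in edgeR 4.0.16 (R 4.3.3) by quasi-likelihood with 1 mean per group, with Benjamini-Hochberg adjustment over the 14463 genes and a threshold of 0.05. The libraries after 0 h thus entered the filter, the scaling factors and the estimate of the spread, while the means compared are those at 0 h. A fit of only the 4 libraries called 5920 genes higher and 5895 lower, in place of 6184 and 5743. It found 1746 genes at least 2-fold higher, in place of 1920, and 2217 at least 2-fold lower, in place of 2235. The 6 libraries of sorted cells and TBLC were fitted in the same way on their own (14373 genes). Other tables of the series are not used here. CPM use the TMM-scaled library size. Where a gene has no count in a group, its fold bound takes 3 counts over that group as the floor. Counting intervals are exact Clopper-Pearson intervals at 95%, which cover counting error only. Gene lists are described by counts and medians, with no set test. Promoter sequences come from RefSeq (GRCm38.p6) and are matched by symbol.

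The genes named are 8 anchors (Gata6, Gata4, Sox17, Sox7, Pdgfra, Nanog, Sox2, Pou5f1), the 15 largest called rises and falls among genes averaging 3 or more in log2 CPM with no overlap between groups, and the members of each of 51 gene lists with the lowest adjusted p or needed where a list's counts are given. Some list members are counted but not reported by name here. Podxl and others of the largest rises stand beside the lists they resemble. The comparison and the lists were chosen with earlier results of these data known. On simulated counts with the depths and spreads of the course (14369 genes, 200 changed), the fit recovered 84% of the 2-fold changes and 68% of those of 0.5 in log2, with 4.4% false among the calls. Far fewer genes changed there than the 82.5% called in the data, so these rates need not hold for this comparison. Alternatives were RLE factors, library totals, no filter, DESeq2 1.42.0, the replicate number as a block, a fit restricted to the 4 libraries, omission of each library and a 4-fold threshold.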

Additional observations from a re-analysis of the deposited data

How the results depend on the processing

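The counts of genes called in the 4 comparisons kept within 1.5 times their value under RLE factors, library totals, no filter, DESeq2, the replicate number as a block and a fit of only the libraries compared. Within that range, library totals gave 1431 genes at least 2-fold higher in the unsorted comparison, in place of 1920. They gave 2895 at least 2-fold lower, in place of 2235. A threshold of 4-fold in place of 2-fold left 586 rises and 819 falls. Leaving out 1 library at a time gave 11397 to 11535 called genes in the unsorted comparison (5892 to 5974 higher and 5489 to 5561 lower), with 1906 to 1934 at least 2-fold higher and 2206 to 2263 at least 2-fold lower. The same for the sorted cells gave 9013 to 9138 genes for PrE-T against EPI-T, 8495 to 8702 for PrE-T against TBLC and 8189 to 8443 for EPI-T against TBLC. With the replicate number as a block 11937 genes were called, and no call of a named gene changed. The deviations of the same-numbered libraries correlated with r = 0.006. Replicates differed by little more than counting noise, so this value cannot show whether the numbers mark a shared culture.

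Of 263 named genes 255 kept their direction and their side of the threshold in the unsorted comparison under every alternative run. Those that crossed the threshold (Cdx2, Zfp352, Zscan4d and, with a change of sign, Mettl3 and Sf3b2) are given above with their values. Under library totals Sf3b2, which had passed, was at -0.034. The others that turned direction had not passed as reported: under library totals Fcgrt was at -0.095, Hsd17b7 at -0.16 and Mettl3 at -0.13, and with 1 library left out Hsd17b7 ran from -0.039 to 0.16 and Stab1 from -0.53 to 0.40. Scaling to library totals moved all changes down by the shift given above, and with it the split of lists with small changes. With 2 libraries a group, low counts limit what can be shown: several genes named above rest on fewer than 10 counts in the lower group.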

Other observations

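Families of genes named by the start of their symbols were chosen after the values had been seen. Of 77 mitochondrial ribosomal protein genes 76 rose and 1 fell (median 0.84, or 0.63 under library totals), from Mrps2 at -0.14 to Mrps26 at 1.54. Of 38 genes for proteasome subunits 35 rose and 3 fell, and the immunoproteasome genes stood at both ends, with Psmb8 at -1.29 ± 0.34 and Psmb9 at 1.77 ± 0.21. Protocadherin genes, which encode neuronal adhesion proteins, fell in 32 of 34 cases (median -2.43). Counts of clustered copies are uncertain because they share exons. Most genes outside the clusters fell as well, while Pcdh1, also outside them, rose by 1.20 ± 0.15. Of 372 genes with Zfp symbols, most of which encode zinc finger proteins, 250 fell and 62 rose (median -0.52). Of 29 Hox genes 18 fell and 4 rose (median -1.13, from -6.43 to 1.55), with Hoxb9 at -3.03 ± 0.15. Kinesin genes, for motor proteins of microtubules, went both ways, with 9 higher and 19 lower of 36 (median -0.34, from -2.84 to 1.70). Of 11 olfactory receptor genes tested 9 fell and 1 rose. Histone genes, whose transcripts end without a poly(A) tail when made in S phase, rose in 23 of 41 cases, none fell, and their copies are nearly identical. For comparison, 42.8% of all genes tested rose and 39.7% fell.

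Some genes had no count in either library of 1 state and at least 30 in the other. There were 10 such genes without a count in TBLC and 10 without a count in diffTBLC. Prom2, a gene of apical membrane protrusions, had 63 and 62 counts in diffTBLC (at least 46.8-fold higher with a floor of 3 counts over the group), Edn2, for an endothelin, 43 and 44 (at least 32.6-fold), and Sox18, the relative of Sox7 and Sox17, 20 and 22 (at least 15.7-fold). In the other direction Tmem72 had 53 and 55 counts in TBLC (at least 32.0-fold lower in diffTBLC) and the serotonin receptor gene Htr5a 40 and 49 (at least 26.4-fold).

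The promoters of the genes that changed most held fewer CpG dinucleotides than the rest. In the 250 bases before the start (RefSeq, GRCm38.p6; 11385 of 14463 tested genes had an entry), the median number of CpG was 15 over all tested genes. It was 6 in genes that fell at least 4-fold (584 with an entry), 12 in those that fell 2-fold to 4-fold (1080), 16 in those that changed less or did not pass (8247), 14 in those that rose 2-fold to 4-fold (1036) and 9.25 in those that rose at least 4-fold (438). This is a description with no test.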
